A study of Mus musculus with 2 samples.

Results

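Astrocytes were a small class among nuclei that had been sorted from mouse cortex for a reporter of Atf3 activity after a mild traumatic brain injury (mTBI). They were taken as the nuclei that the deposited table labels Astro and does not place in its subset of neurons. By this rule 115 of the 8171 labelled nuclei were astrocytes. The male library held 53 of 4003 nuclei, a share of 1.32% (exact binomial 95% interval 0.993 to 1.73%), and the female library 62 of 4168, a share of 1.49% (1.14 to 1.90%). These intervals, and all others on counts, cover counting error only. The intervals of the shares overlapped.

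Astrocytes are glial cells that take up glutamate and potassium, conduct water at their endfeet on blood vessels and supply lipid and matrix proteins to neurons. After injury they become reactive, a change of state known for a rise of the intermediate filament protein Gfap and, around lesions, for signalling through the gp130 receptors and Stat3. Atf3 is a stress-induced transcription factor of the ATF/CREB family that pairs with AP-1 proteins such as Jun and is best known in injured neurons.

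The nuclei came from mice of the strain Atf3-CreER::Sun1-sfGFP, with the genotype Atf3-CreER:+/wt; SUN-SfGFP:+/wt, more than 7 weeks old. All animals had mTBI and received tamoxifen at 4 and 5 days after it, and the cortex on the injured side was taken at 7 days for sorting of GFP+ nuclei. There were 2 libraries of Chromium 3′ v3 chemistry, each from a pool of 4 animals, called here by sex. The series has no uninjured animals and no nuclei without the reporter, so a level in astrocytes could not be compared with the uninjured state. Cre is driven by Atf3 in any cell type, and the reporter marks nuclei in which it was active around the tamoxifen doses, not at collection. For the female library the sex and source fields of the public label say male. The title and the deposited table say female, and so did the astrocytes, with 669 UMIs (unique molecular identifiers, each a captured RNA molecule) of Xist and 0 of the Y-linked genes Uty and Eif2s3y. The male astrocytes had 0 UMIs of Xist, 24 of Uty and 25 of Eif2s3y.

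The 53 male astrocytes held 161604 UMIs and the 62 female astrocytes 458106. Median depth per nucleus was 2637 UMIs for males (range 734 to 9848) and 5286 for females (1003 to 25623). Female astrocytes were the deeper sum, and 1 UMI equals 6.19 CPM (UMIs scaled to the total of the sum) for males and 2.18 CPM for females. A gene without a UMI has a limit of 3 UMIs, which is 18.6 and 6.55 CPM. Median mitochondrial shares were 0.199% and 0.0538%, with 1 male and 2 female astrocytes above 5%. The deposited clustering, made from the same counts as the label, placed 114 of the astrocytes in cluster 16 and 1 in cluster 25. Cluster 16 had 125 nuclei, and its other 11 were labelled VLMC (4), SMC-Peri (3), Oligo (2), L6 IT CTX (1) and Micro-PVM (1). None of the astrocytes carried a barcode sequence that occurs in both libraries, while 2 of all labelled nuclei did.

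The label was checked against 4 markers that are known for astrocytes. Slc1a2, the main glutamate transporter of the forebrain, stood at 8577 CPM (male) and 7265 CPM (female), against 56.9 and 58.8 CPM in microglia and 102 and 80.8 CPM in neurons. Slc1a3, a second glutamate transporter of glia, was at 4901 and 3281 CPM in astrocytes, 373 and 218 CPM in microglia and 9.96 and 8.18 CPM in neurons. Both transporters were above the other classes in each library, with no overlap. Aqp4, the water channel of the endfeet, was at 458 and 498 CPM, and microglia and neurons were at 2.81 and 1.74 CPM and 0.653 and 0.609 CPM. Gfap was at 340.3 and 530.4 CPM, against 3.21 and 0.995 CPM in microglia and 0.980 and 0.783 CPM in neurons. The plot of levels by class shows the same separation for further genes. The label was made from the same counts, so values of these 4 genes are a description and carry no test.

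**Figure D1:**
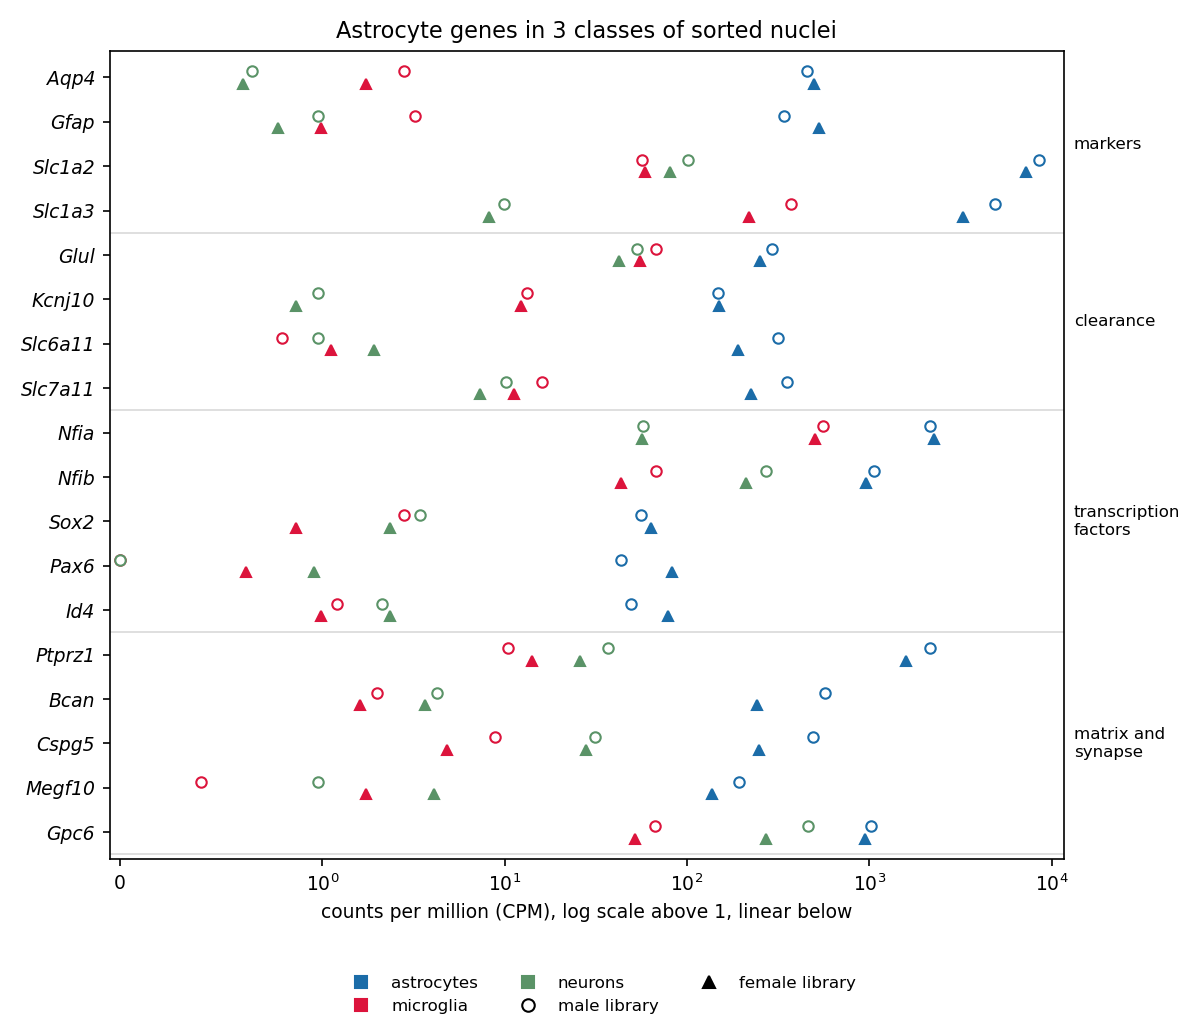
Summed levels in CPM (horizontal axis, log scale above 1 and linear below) of marker, clearance, transcription factor, matrix and synapse genes in astrocytes, microglia and neurons, with open circles for the male and filled triangles for the female library. The astrocyte points of each gene lie to the right of the 4 points of the other classes, and Slc1a2 is the highest at 8577 and 7265 CPM.

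Each astrocyte nucleus held UMIs of at least 1 of these markers, with 7 UMIs in the lowest male and 2 in the lowest female nucleus. A Slc1a2 UMI was present in 53 of 53 (100%) male and 61 of 62 (98.4%) female astrocytes, and in 131 of 1690 (7.75%) and 390 of 2338 (16.7%) microglia. Aqp4 was detected in 34 of 53 (64.2%) and 48 of 62 (77.4%) astrocytes. Gfap was detected in 23 of 53 (43.4%, 29.8 to 57.7%) male and 38 of 62 (61.3%, 48.1 to 73.4%) female astrocytes. In microglia the shares with a Gfap UMI were 0.473% and 0.299% at median depths of 1298.5 and 3012.5 UMIs. After nuclei under 2000 UMIs (18 male and 4 female) were left out and the others thinned to 2000, Gfap was found in 12 of 35 male (34.3%) and 23 of 58 female astrocytes (39.7%), with intervals of 19.1 to 52.2% and 27.1 to 53.4%.

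**Figure D2:**
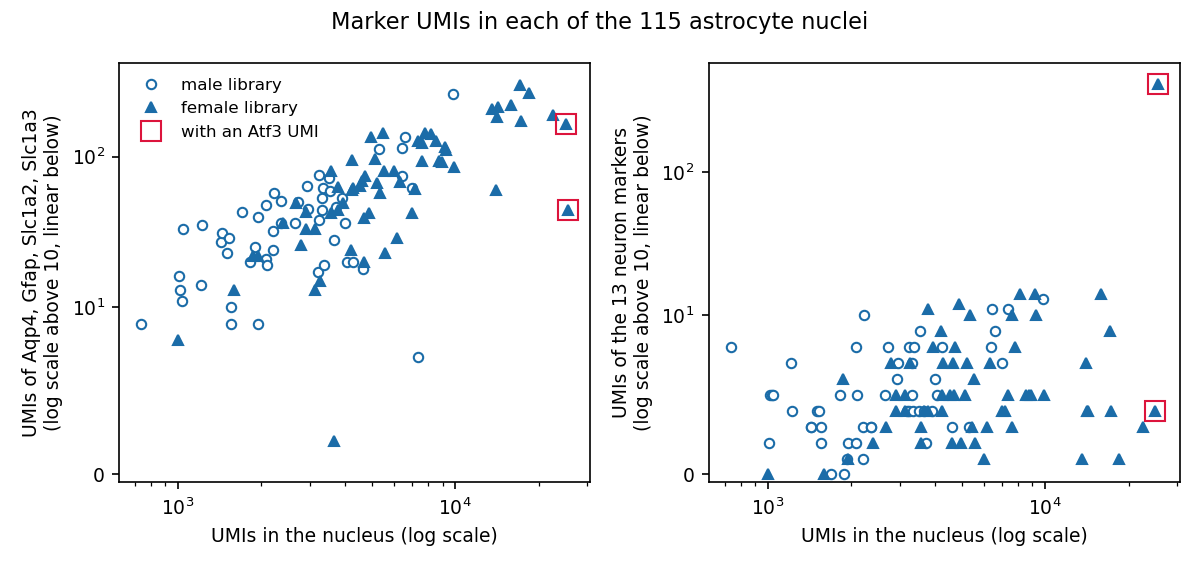
UMIs of the 4 astrocyte markers (left) and of 13 neuron markers (right) against all UMIs of each of the 115 astrocyte nuclei (horizontal, log scale; vertical axes log above 10 and linear below), with squares around nuclei that hold an Atf3 UMI. The neuron marker UMIs reach 13 in male nuclei and 14 in female nuclei, except for 1 female nucleus with 413.

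That female nucleus stood apart from the rest. It was the deepest of the astrocytes, with 25623 UMIs, and held 413 of the 742 UMIs of neuron markers in the female astrocytes, 353 of them from Meg3, a long noncoding RNA abundant in neurons. It also held 12 UMIs each of Gfap, Slc1a2 and Slc1a3. The median astrocyte had 5 UMIs of neuron markers in either library. For Atf3, Acan, Ecel1 and Sox11 the values without it are given below, an alternative chosen after the data were seen.

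Astrocytes were then compared with the 2 most frequent classes of the same sort, microglia (1690 male and 2338 female nuclei labelled Micro-PVM) and neurons (1378 and 1202 nuclei of the neuron subset). UMIs were summed per library and class, and the 6 sums were fitted with edgeR, with the libraries as replicates. Among 13818 genes tested, 2086 (15.1%) were higher and 2304 (16.7%) lower in astrocytes than in microglia at an adjusted p under 0.05. Against neurons, 1827 genes (13.2%) were higher and 2094 (15.2%) lower. In both comparisons 1113 genes (8.05%) were higher and 540 (3.91%) were lower, and these percentages are the background for the lists below. The comparisons share the astrocyte sums. The median log2 fold change of all genes tested was -0.26 against microglia and -0.21 against neurons, and -0.08 and -0.02 with genes at 0 UMIs in a class set to the bound that 3 UMIs allow. Of the genes called lower, 304 against microglia and 199 against neurons had 0 UMIs in astrocytes.

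Genes with the largest differences were named by the rank of the fitted fold, and those higher in astrocytes needed at least 10 UMIs in each library. With 0 UMIs in a class only a bound is known, so the rank of such a gene is not established. Highest against microglia was Cyp2j9, a cytochrome P450 gene, at 74.3 and 91.7 CPM in astrocytes and at most 0.124 CPM in microglia. Next was A2m, an inhibitor of proteases, at 61.9 and 234 CPM. Against neurons Itih3, a gene for a chain of an inhibitor that binds hyaluronan, came first by the fitted fold, at 99 and 63.3 CPM with 0 UMIs in neurons, at least 202-fold higher in males and 243-fold in females. Dio2, which had 3 UMIs in neurons, ranked next. It was at 427 and 260 CPM in astrocytes and 0.327 and 0.087 CPM in neurons, beyond the bounds of Itih3. Etnppl, a phospholyase of astrocytes, was at least 126-fold higher in males and 83.7-fold in females. These bounds set a sum without UMIs to 3 UMIs per library. Lowest against microglia by the fitted fold was Capn3, a calpain protease, with 0 UMIs in astrocytes and 419 and 213 CPM in microglia, at least 22.6-fold lower in males and 32.5-fold in females. Dock8, with 2 male and 4 female UMIs in astrocytes, had a log2 fold change of -6.58 against microglia, beyond the bounds of Capn3. Against neurons the first by the fitted fold was Hrk, a proapoptotic gene, with 0 UMIs in astrocytes and 87.7 and 75.9 CPM in neurons, at least 4.72-fold lower in males and 11.6-fold in females. Celf4, with 10 male and 21 female UMIs in astrocytes, had a log2 fold change of -4.86 against neurons, beyond the bounds of Hrk. Syt13, a synaptotagmin, was at least 4.35-fold lower in males and 8.12-fold in females.

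The counts of genes called moved most with 2 alternatives. When the RNA profile of barcodes with 10 to 100 UMIs was subtracted from all sums, 755 of the 2086 genes higher than in microglia and 499 of the 1827 higher than in neurons were still called. That profile rests on 23526 UMIs of the male library and 39978 of the female one. With the profile of empty barcodes of over 100 and up to 400 UMIs, which rests on 15083109 and 21527561 UMIs and was chosen after the data were seen, 2019 and 1610 were still called. Of the 2304 genes lower than in microglia and the 2094 lower than in neurons, 596 and 402 were still called with the first profile and 1908 and 1837 with the second. Which of the profiles describes free RNA better was not tested. When only astrocytes with at most 1 UMI of 15 microglia markers were kept, 17 male nuclei and 1 female nucleus with 39199 and 3669 UMIs remained, and 476 and 318 of the higher and 890 and 834 of the lower genes were still called. The female nucleus held 2 UMIs of the 4 astrocyte markers, the fewest of all 115 astrocytes. In these 18 nuclei the median log2 fold change of all genes tested was -2.10 against microglia and -2.10 against neurons, so a change of sign of a gene there cannot be told apart from a shift of all genes. Of 100 folds with a call, 52 lost it with the first profile and 4 with the second. In the 18 nuclei 43 of 86 called folds that could be fitted lost it. Losses with the first profile and in the 18 nuclei are named below for some genes only, so a gene without such a remark can have lost a call too. Of the called folds, 100 of 100 had the same direction in both libraries, and 37 differed by over 1.5 times between the fit and a library alone.

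**Figure D3:**
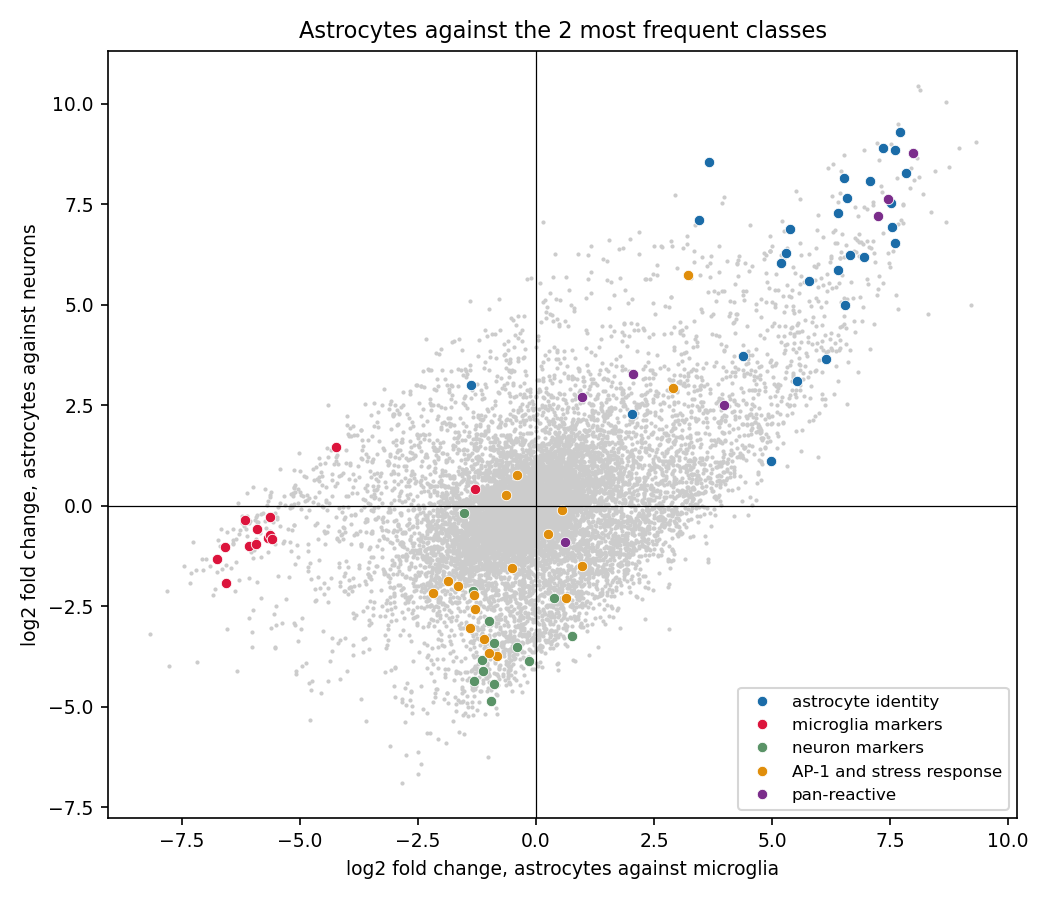
Fitted log2 fold changes of astrocytes against microglia (horizontal) and against neurons (vertical) for the 12698 genes tested with a UMI in each class, with 5 gene lists in colour. Astrocyte identity genes lie at the upper right, with medians of 6.47 and 6.70, microglia markers at the left, and neuron markers and many AP-1 and stress genes below 0 on the vertical axis.

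A list of 28 astrocyte identity genes, to which the 4 markers belong, was measured in full. Of these, 26 were higher than in both other classes, against 8.05% of all genes. The list also overlaps with what defines the label, so its values, with the adjusted p values of its members, are a description. Its exceptions were Sox9 and Apoe. Sox9, a transcription factor of the astrocyte lineage, was at 179 and 83 CPM in astrocytes, 6.82 and 1.87 CPM in microglia and 58.5 and 36.6 CPM in neurons. Its log2 fold change was 4.98, adjusted p = 7.94e-06 against microglia, and 1.11, adjusted p = 0.0553 against neurons, where several alternatives gave a call. Apoe, the lipid carrier, was at 334 and 236 CPM and lay between microglia (693 and 646 CPM) and neurons (36.1 and 23.6 CPM). Its log2 fold changes were -1.38, adjusted p = 0.000492 and 3.0, adjusted p = 2.1e-06.

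Of 16 genes of ion, water and transmitter clearance, 9 are also on the identity list, 3 of them among the 4 markers, so the list as a whole carries no test. The 7 others were tested and 7 were higher than in both other classes (8.05% of all genes). Their median log2 fold change was 5.43 against microglia and 5.48 against neurons. The label was made from the same counts, and these values too are a description. Kcnj10 and Glul belong to both lists. Kcnj10, the potassium channel Kir4.1, was level between the libraries at 149 and 151 CPM, with 13.2 and 12.3 CPM in microglia and 0.980 and 0.870 CPM in neurons. Its log2 fold changes were 3.45 ± 0.30 (SE, n = 2 libraries), adjusted p = 2.48e-06 against microglia and 7.10 ± 0.37 (SE, n = 2 libraries), adjusted p = 7.98e-08 against neurons. Astrocytes were above both classes in each library. Slc6a11, the GABA transporter GAT3, was at 316 and 189.9 CPM (7.66, adjusted p = 9.88e-08 against microglia, and 7.01, adjusted p = 1.36e-07 against neurons). Slc7a11, the cystine and glutamate exchanger, was at 353 and 225 CPM (4.27, adjusted p = 1.67e-07 and 4.77, adjusted p = 1.15e-07). The smallest differences of those named belonged to Glul, glutamine synthetase, at 291 and 251 CPM against 67.8 and 55.1 CPM in microglia and 53.4 and 42.4 CPM in neurons. Its log2 fold changes were 2.04, adjusted p = 8.73e-06 against microglia and 2.27, adjusted p = 4.87e-06 against neurons.

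Genes known to rise in reactive astrocytes of many kinds of injury were mixed. Of 13 pan-reactive genes, 8 passed the filter on low counts. Without Gfap, which is 1 of the 4 markers, 5 of the other 7 were higher than in both other classes (8.05% of all genes were). Lcn2, Steap4 and Hspb1 had 0 UMIs in the astrocytes of either library. Serpina3n, a secreted protease inhibitor, had 0 UMIs in male and 12 in female astrocytes and was not tested. Osmr, the receptor subunit for oncostatin M, was at 74.3 and 170.3 CPM, while each sum of microglia and neurons was below 1 CPM. Its log2 fold change was 7.46 ± 0.60 (SE, n = 2 libraries), adjusted p = 1.34e-06 against microglia and 7.63 ± 0.57 (SE, n = 2 libraries), adjusted p = 1.16e-06 against neurons. In a library alone the fold against microglia was 5.66 in males and 7.11 in females. Of the 78 female Osmr UMIs, 26 came from 1 nucleus, and an Osmr UMI was found in 7 of 53 (13.2%) male and 25 of 62 (40.3%) female astrocytes, against 0.118% and 0.214% of microglia.

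Aspg, an asparaginase, followed Osmr in size, at 105 and 74.2 CPM in astrocytes and below 1 CPM in the other sums (7.25, adjusted p = 1.36e-06 against microglia, and 7.21, adjusted p = 1.24e-06 against neurons). Vim, the filament protein vimentin, was at 49.5 and 43.7 CPM, with 7.22 and 12.1 CPM in microglia and 3.92 and 4.18 CPM in neurons. Its log2 fold changes were 2.06, adjusted p = 0.00366 and 3.27, adjusted p = 0.000194. The first lost its call when the other classes were thinned (1.34) and with the RNA of barcodes with 10 to 100 UMIs subtracted (2.04). In the 18 nuclei with at most 1 UMI of microglia markers neither was called (0.26 and 1.41). Those nuclei held 1 male and 0 female UMIs of Vim. S1pr3, a receptor for sphingosine 1-phosphate, had 3 male and 9 female UMIs, or 18.6 and 19.6 CPM (3.99, adjusted p = 0.000762 against microglia, and 2.51, adjusted p = 0.00738 against neurons). The 18 nuclei with at most 1 UMI of microglia markers held 0 UMIs of it. Cd44, a receptor for hyaluronan, was at 186 and 100.4 CPM, within the range of the other classes at 73.8 and 83.7 CPM in microglia and 225 and 196 CPM in neurons. It was not called against microglia (0.61, adjusted p = 0.0918), was called there with a mean of at least 20 CPM and after thinning, and was lower than in neurons (-0.90, adjusted p = 0.0163), a call lost after subtraction of the empty-barcode profile (-1.07).

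**Figure D4:**
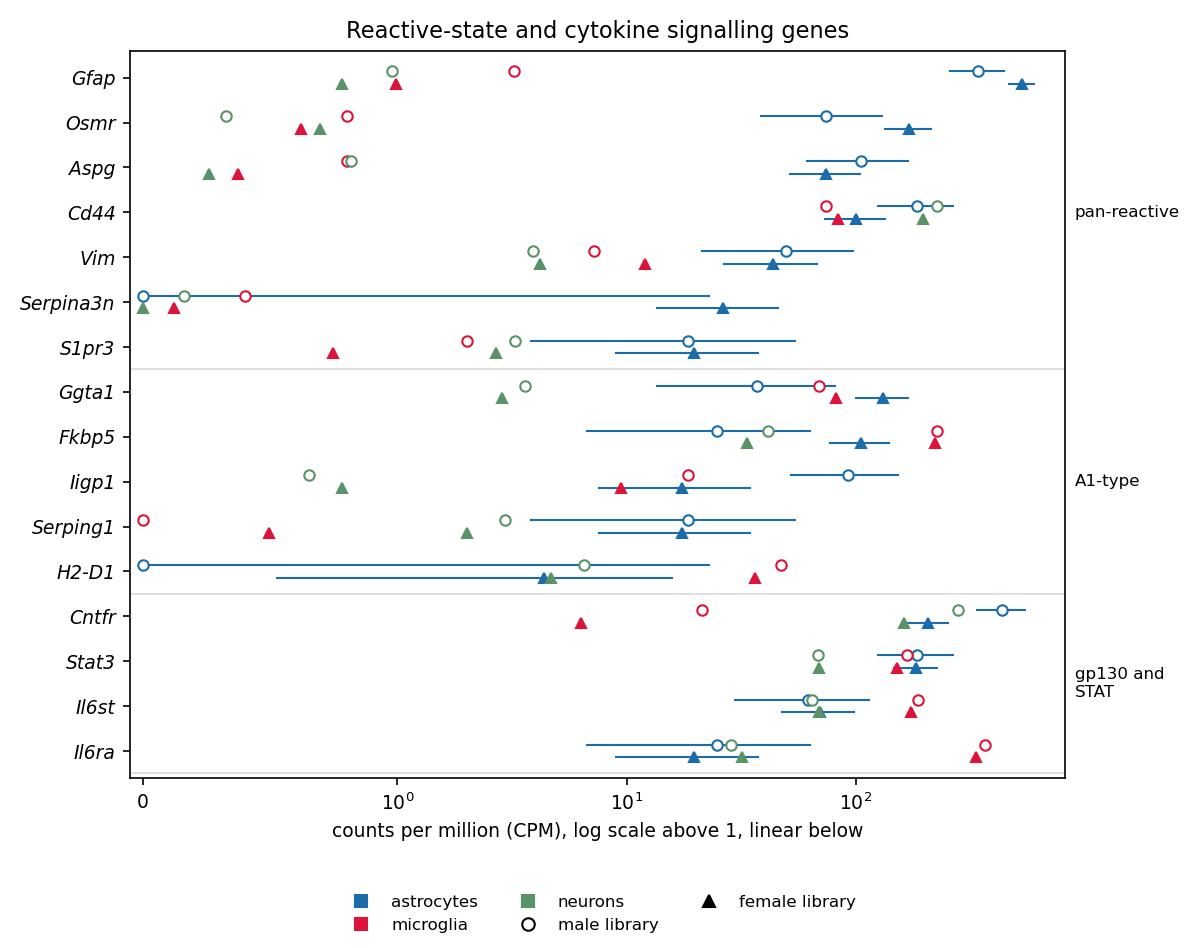
Levels in CPM (log scale above 1, linear below) of reactive-state and cytokine signalling genes in astrocytes, microglia and neurons, with open circles for the male and filled triangles for the female library and lines for exact Poisson 95% intervals of the astrocyte sums. Gfap, Osmr and Aspg stand clear of the other classes in both libraries, while Cd44 and Il6st lie among them.

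Gfap, Osmr and Aspg were the pan-reactive members with the largest folds against microglia, and their promoters are shown here for that reason, as 250 bases before to 50 after the RefSeq start (build GRCm38.p6). The regions are chr11:102897151-102897450 on the minus strand for Gfap, chr15:6874264-6874563 on the minus strand for Osmr and chr12:112106433-112106732 on the plus strand for Aspg. Capitals mark matches to TTCNNNGAA, the motif of STAT factors, or TGANTCA, the motif of AP-1 factors, and each motif reads the same on both strands. Among all 32851 promoters of the table, 8.30% held the first and 7.81% the second.
Gfap: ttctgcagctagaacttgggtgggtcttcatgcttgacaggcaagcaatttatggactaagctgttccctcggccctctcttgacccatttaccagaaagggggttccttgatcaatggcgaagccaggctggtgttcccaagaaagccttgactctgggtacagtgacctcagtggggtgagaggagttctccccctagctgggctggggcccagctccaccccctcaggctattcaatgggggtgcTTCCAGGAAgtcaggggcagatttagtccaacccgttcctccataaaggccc
Osmr: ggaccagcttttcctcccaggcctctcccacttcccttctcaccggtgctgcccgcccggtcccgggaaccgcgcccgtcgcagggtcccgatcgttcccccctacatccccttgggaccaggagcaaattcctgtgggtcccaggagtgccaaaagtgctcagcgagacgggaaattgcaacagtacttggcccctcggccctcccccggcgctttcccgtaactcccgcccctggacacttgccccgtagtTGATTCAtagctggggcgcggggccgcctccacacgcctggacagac
Aspg: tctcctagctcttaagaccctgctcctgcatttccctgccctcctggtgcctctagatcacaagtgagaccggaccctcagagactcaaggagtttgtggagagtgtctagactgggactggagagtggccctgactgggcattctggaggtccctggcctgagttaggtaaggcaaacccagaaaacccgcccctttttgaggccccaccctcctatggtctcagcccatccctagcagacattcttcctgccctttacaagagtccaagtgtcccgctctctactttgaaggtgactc
The capitals are a STAT motif in Gfap and an AP-1 motif in Osmr, and these letters did not occur in the window of Aspg. All 13 pan-reactive genes matched the table, and 2 of them (Gfap and Steap4) held the STAT motif and 3 (Cp, Cxcl10 and Osmr) the AP-1 motif. A match is a description of letters and shows no binding.

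Lists of so-called A1-type and A2-type genes describe astrocytes after inflammation and after ischemia. Of 11 A1-type genes, 10 were tested and 1, Serping1, was higher than in both (8.05% of all genes). Serping1, an inhibitor of the complement protease C1, had 3 male and 8 female UMIs (18.6 and 17.5 CPM, 5.37, adjusted p = 0.000436 against microglia, and 2.69, adjusted p = 0.00982 against neurons). The latter call was lost with the RNA of barcodes with 10 to 100 UMIs subtracted (2.43). It was also lost in the 18 nuclei with at most 1 UMI of microglia markers (3.16). Against neurons alone 5 of the 10 were higher (13.2% of all genes). The list median was -0.58 against microglia (0.15 with genes at 0 at their bound) and 1.91 against neurons. Of 12 A2-type genes, 5 were tested, and 1 was higher than in microglia (15.1% of all genes). This was Cd109, a membrane protein that binds transforming growth factor beta. Its 3 male and 8 female UMIs gave 18.6 and 17.5 CPM (2.56, adjusted p = 0.00257 against microglia, and -0.88, adjusted p = 0.138 against neurons), and the 18 nuclei with at most 1 UMI of microglia markers held 0 UMIs of it. The A2-type median was -0.04 against microglia and -0.88 against neurons, and 0.00 for both with genes at 0 at their bound.

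Some A1-type genes had unequal levels in the libraries, a difference that was not tested. Ggta1, which makes the alpha-gal epitope, was at 37.1 CPM (male) and 131 CPM (female) in astrocytes, and its fold against microglia was -1.07 in males and 0.52 in females (0.30, adjusted p = 0.628 in the fit). Against neurons it was higher in both (4.76, adjusted p = 1.39e-05, with 2.83 in males and 5.08 in females). Fkbp5, a chaperone induced by glucocorticoids, was at 24.8 and 105 CPM, and 24 of its 48 female UMIs came from the nucleus of cluster 25. It was lower than in microglia (-1.57, adjusted p = 0.00716), and against neurons its fold was -1.12 in males and 1.41 in females (0.90, adjusted p = 0.123), called with the library as a block and after thinning. Without that nucleus the fitted folds of Fkbp5 were -2.36 and 0.10. Iigp1, a GTPase induced by interferon, went the other way and was at 92.8 and 17.5 CPM. Its fold was 1.59, adjusted p = 0.0573 against microglia, where several alternatives gave a call, and 5.56, adjusted p = 9.84e-05 against neurons, with 6.03 in males and 3.63 in females. H2-D1, a class I histocompatibility gene, had 2 UMIs in all astrocytes, a ratio to microglia of 0.0831 with a 95% interval of 0.0100 to 0.302.

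The gp130 and STAT list held the receptors and mediators that carry interleukin-6 type signals. All 11 members were tested, with a median log2 fold change of -0.25 against microglia and 0.30 against neurons. Of these, 1, Osmr, was higher than in both other classes (8.05% of all genes). Cntfr, the receptor for ciliary neurotrophic factor, was the most abundant, at 433 and 207 CPM, with 21.3 and 6.34 CPM in microglia and 279.9 and 162 CPM in neurons. It was higher than in microglia (4.54, adjusted p = 7.58e-06) and not called against neurons (0.20, adjusted p = 0.739). Il6ra, the interleukin-6 receptor, was near the bottom at 24.8 and 19.6 CPM, and microglia were at 367 and 333 CPM (-4.10, adjusted p = 5.78e-07). Against neurons its fold was -0.70, adjusted p = 0.166. Il6st, the gp130 subunit shared by these receptors, was at 61.9 and 69.9 CPM, below microglia at 187 and 174 CPM (-1.49, adjusted p = 0.00069) and level with neurons at 64.2 and 69.1 CPM.

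Stat3, the factor activated downstream of gp130, stood at 186 CPM (male) and 183 CPM (female) in astrocytes. Microglia were at 166 and 151 CPM and neurons at 68.3 and 68.7 CPM, so astrocytes were above neurons in each library and near microglia. The log2 fold changes were 0.13, adjusted p = 0.679 against microglia and 1.22, adjusted p = 0.000903 against neurons. The first was -0.02 in the male library alone, after TMM scaling that the CPM values do not have, and -0.0048 without a filter.

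Transcription factors and receptors of the Notch, BMP and progenitor list were mostly high. Of 18 members, 14 were tested and 11 were higher than in both other classes (8.05% of all genes). The median log2 fold change was 4.54 against microglia and 3.60 against neurons (4.07 and 3.60 with genes at 0 at their bound). Nfia, a factor that starts astrocyte formation in development, was the most abundant, at 2153 and 2257 CPM, with 559 and 505 CPM in microglia and 57.2 and 56.9 CPM in neurons. Its folds were 1.95 ± 0.23 (SE, n = 2 libraries), adjusted p = 3.2e-05 against microglia and 5.04 ± 0.26 (SE, n = 2 libraries), adjusted p = 8.08e-08 against neurons. Nfib, its close relative, was at 1058 and 958 CPM (4.1, adjusted p = 1.24e-07 and 1.82, adjusted p = 4.14e-05). Astrocytes were highest in each library for both factors. With the RNA of barcodes with 10 to 100 UMIs subtracted, Nfia lost its call against microglia (1.99) and Nfib both calls (6.86 and 2.19).

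Pax6, a factor of radial glia, was at 43.3 and 83 CPM in astrocytes and below 1 CPM in each other sum (7.01, adjusted p = 5.2e-05 against microglia, and 6.58, adjusted p = 4.43e-05 against neurons). Sox2, which maintains neural stem cells and stays on in astrocytes, was at 55.7 and 63.3 CPM (5.26, adjusted p = 1.29e-05 and 4.22, adjusted p = 3.47e-05). Id4, an inhibitor of bHLH factors downstream of BMP, was at 49.5 and 78.6 CPM (5.86, adjusted p = 3.68e-06 and 4.70, adjusted p = 9.17e-06). For all 3 factors the male and female astrocytes lay above every other sum. Both calls of Pax6 were lost with the RNA of barcodes with 10 to 100 UMIs subtracted, at similar folds (7.02 and 6.42). The Notch1 receptor was at 142 and 122 CPM (2.19, adjusted p = 0.000244 against microglia, and 6.27, adjusted p = 4.22e-07 against neurons). Notch2 was at 161 and 186 CPM, close to microglia at 209 and 238 CPM (-0.43, adjusted p = 0.204) and above neurons at 24.3 and 22.1 CPM (2.73, adjusted p = 7.6e-06). Bmpr1a, a BMP receptor, was at 278 and 314 CPM (1.41, adjusted p = 0.000294 and 1.02, adjusted p = 0.00316). Its calls were lost with the RNA of barcodes with 10 to 100 UMIs subtracted (1.45 and 0.97).

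Matrix and proteoglycan genes were compared next. Of 16 members, 15 were tested. Of these, 13 were higher than in microglia (15.1% of all genes), and 10 were higher and 3 lower than in neurons (13.2% and 15.2%). Higher than in both were 9 (8.05% of all genes). The median log2 fold change was 4.12 against microglia and 3.31 against neurons. Ptprz1, a receptor phosphatase with chondroitin sulfate chains, led with 2147 CPM (male) and 1585 CPM (female) (7.02, adjusted p = 2.79e-08 against microglia, and 5.65, adjusted p = 6.04e-08 against neurons). Bcan, the proteoglycan brevican of perineuronal matrix, was at 569 and 242 CPM, higher in the male library (7.57, adjusted p = 4.53e-08 and 6.32, adjusted p = 7.64e-08). Cspg5, neuroglycan C, was at 489 and 249 CPM (5.66, adjusted p = 7.77e-08 and 3.31, adjusted p = 1.67e-06). These 3 were above the other classes in each library. Both calls of Ptprz1 (8.48 and 6.26) and that of Cspg5 against neurons (3.27) were lost with the RNA of barcodes with 10 to 100 UMIs subtracted.

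Lower than in neurons were Tnr, Acan and Col4a1. Tnr, tenascin R, was at 179 and 268 CPM against 436 and 357 CPM in neurons and 68.6 and 64.2 CPM in microglia (1.74, adjusted p = 0.000305 against microglia, and -0.95, adjusted p = 0.015 against neurons). The call against neurons was lost after thinning (-0.65) and after subtraction of the empty-barcode profile (-1.22). Acan, the proteoglycan aggrecan, had 1 male and 7 female UMIs, the latter all in the nucleus with 413 neuron marker UMIs (6.19 and 15.3 CPM, -1.67, adjusted p = 0.0264 against neurons), so 1 UMI was left without it, and the fitted fold then (-4.56) rests on that UMI.

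Of 12 genes that act on synapses or in engulfment, 11 were tested and 7 were higher than in both other classes (8.05% of all genes). The median log2 fold change was 3.96 against microglia and 4.37 against neurons. Sparcl1, the synapse-promoting protein hevin, was at 811 and 683 CPM, with 43.3 and 23.9 CPM in microglia and 248 and 215 CPM in neurons (4.42, adjusted p = 1.04e-07 and 1.44, adjusted p = 0.000331). Gpc6, a glypican that recruits glutamate receptors, was at 1021 and 949.6 CPM (3.96, adjusted p = 3.35e-07 against microglia, and 1.21, adjusted p = 0.00217 against neurons). The latter call was lost after subtraction of the empty-barcode profile (1.24) and of the RNA of barcodes with 10 to 100 UMIs (1.17). In the 18 nuclei with at most 1 UMI of microglia markers the fold was 0.05. The median of all genes against neurons was -2.10 there. The engulfment receptors differed in their order. Megf10 was at 192 and 138 CPM, above every other sum (6.68, adjusted p = 4.26e-06 and 5.57, adjusted p = 8.17e-06). Mertk was at 1194 and 856 CPM in astrocytes, below microglia at 1776 and 1897 CPM and above neurons at 28.1 and 28.9 CPM (-0.99, adjusted p = 0.00475 and 4.89, adjusted p = 1e-07). Axl had the same order, at 80.4 and 52.4 CPM (-0.93, adjusted p = 0.0192 and 4.27, adjusted p = 2.05e-06), and its call against microglia was lost with a mean of at least 20 CPM (-0.74) and after thinning (-0.48). Thbs1 and Thbs4, thrombospondins that promote synapses, had 0 UMIs in astrocytes.

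Cholesterol and lipid genes were mixed. All 16 were tested, and 6 were higher and 1 lower than in both other classes (8.05% and 3.91% of all genes were). The median log2 fold change was 1.03 against microglia and 1.41 against neurons. Srebf2, the master regulator of cholesterol synthesis, was at 105 and 93.9 CPM, with 20.9 and 20.8 CPM in microglia and 20.6 and 21.3 CPM in neurons (2.14, adjusted p = 0.000105 and 2.01, adjusted p = 0.000168). Fasn, fatty acid synthase, was at 43.3 and 43.7 CPM (2.23, adjusted p = 0.00175 and 1.77, adjusted p = 0.00675). Both were above every other sum. The 2 calls of Fasn were lost with the RNA of barcodes with 10 to 100 UMIs subtracted (2.37 and 1.86). Abca1, the exporter that loads lipid on Apoe, was the most abundant, at 779.7 and 891 CPM, between microglia at 1296 and 1887 CPM (-1.05, adjusted p = 0.0161) and neurons at 133 and 137 CPM (2.41, adjusted p = 6.91e-05). Abcg1, a related exporter, was the member below both, with 2 male and 4 female UMIs (12.4 and 8.73 CPM, -5.51, adjusted p = 4.48e-07 against microglia, and -2.49, adjusted p = 0.00139 against neurons).

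Atf3, whose activity had set the reporter that was sorted for, had few UMIs in the astrocytes. There were 0 UMIs in the 53 male nuclei and 10 in the 62 female nuclei, or 0 and 21.8 CPM against a limit of 18.6 CPM for the male sum. Microglia were at 26.5 and 35.9 CPM and neurons at 104 and 169 CPM, and barcodes with over 100 and up to 400 UMIs that were not called as nuclei, empty barcodes here, at 50.6 and 70.2 CPM. Male astrocytes were below every other sum, and female astrocytes below the other female sums. Of the 10 UMIs, 9 lay in the nucleus with 413 neuron marker UMIs and the other in the astrocyte of cluster 25. Without the former nucleus female astrocytes were at 2.31 CPM, a ratio of 0.0643 to female microglia (95% interval 0.00162 to 0.361) and 0.0137 to female neurons (0.000346 to 0.0764).

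In the fit, Atf3 was lower in astrocytes than in neurons (-3.31 ± 0.59 (SE, n = 2 libraries), adjusted p = 0.00106) and not called against microglia (-1.09 ± 0.68 (SE, n = 2 libraries), adjusted p = 0.258). In females alone the log2 fold was -3.14 against neurons and -0.85 against microglia. The male astrocytes, at 0, were at least 5.60-fold lower than neurons and at least 1.43-fold lower than microglia. Without the nucleus that held 9 of the UMIs the fitted folds were -6.53 against neurons and -4.32 against microglia, from 1 UMI, and are no bounds. A call against microglia was gained then and without a filter, and the call against neurons was lost after subtraction of the RNA of barcodes with 10 to 100 UMIs, where the fold was larger (-4.24). A UMI of Atf3 was present in 0 of 53 (0%, 0 to 6.72%) male and 2 of 62 (3.23%, 0.393 to 11.2%) female astrocytes. The shares were 55 of 1690 (3.25%) and 212 of 2338 (9.07%) in microglia and 337 of 1378 (24.5%) and 528 of 1202 (43.9%) in neurons. With the same thinning to 2000 UMIs, 0 of 35 male and 0 of 58 female astrocytes had a UMI, against 3.21% and 5.40% of microglia and 17.1% and 20.6% of neurons, with upper limits of 10.0% and 6.16% for astrocytes. In each library alone the limits for astrocytes thus lie above the shares of microglia and below those of neurons. Over both libraries 0 of 93 astrocytes had a UMI, with an upper limit of 3.89%. The share of microglia was then 5.09% (4.22 to 6.09%), with 1907 of the 2219 microglia but 58 of the 93 astrocytes from the female library. Nuclei are not replicates, so these pooled intervals are no test between the classes. The reporter had 0 and 1 UMIs in astrocytes and up to 10.7 CPM in neurons. Atf3 RNA at the time of tamoxifen was not measured.

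**Figure D5:**
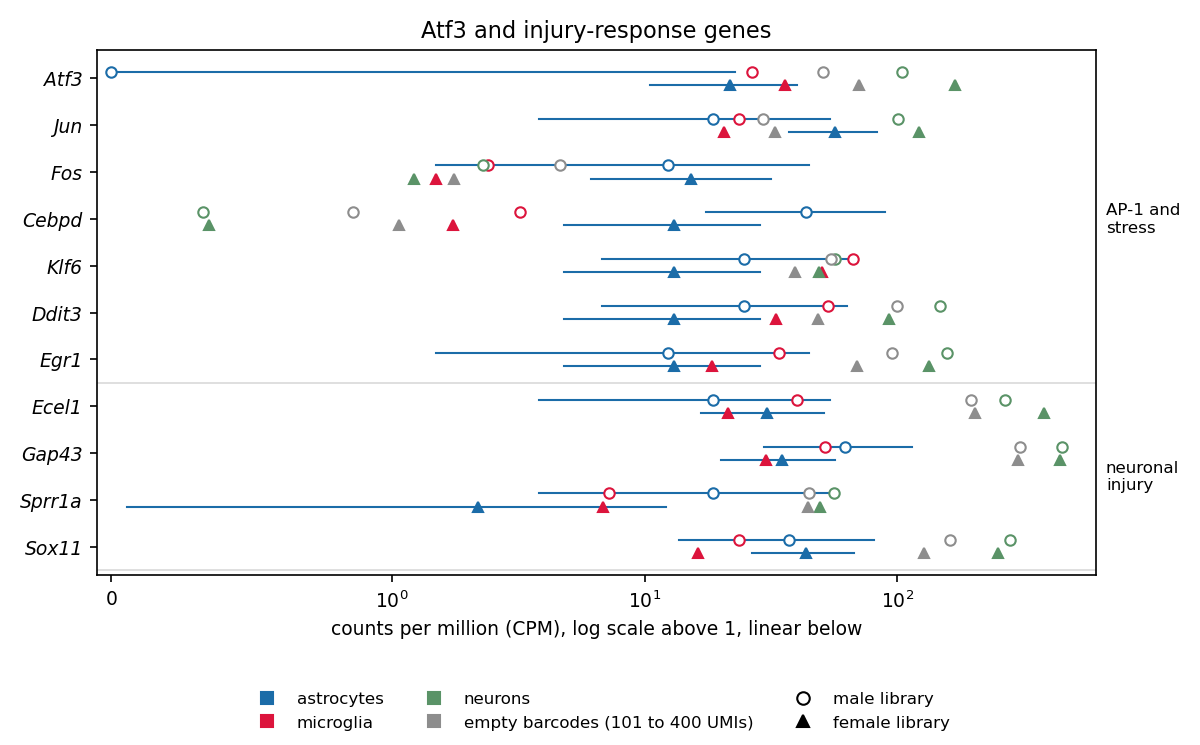
Levels in CPM (log scale above 1, linear below) of stress and injury genes in astrocytes, microglia, neurons and empty barcodes, with open circles for the male and filled triangles for the female library and lines for exact Poisson 95% intervals of the astrocyte sums. For Atf3 the male astrocytes are at 0 and the female at 21.8 CPM, while neurons are at 104 and 169 CPM.

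The AP-1 and stress list, which includes Atf3, had few UMIs in astrocytes. Of 23 members, 21 were tested. Of these, 2 were higher and 2 lower than in both other classes (8.05% and 3.91% of all genes). Lower than in neurons were 7 (15.2% of all genes). The median log2 fold change was -1.0 against microglia and -2.18 against neurons, or -0.50 and -1.55 with genes at 0 at their bound. Fosb, Fosl1, Cebpb and Chac1 had 0 UMIs. Jun, the partner of Atf3, was at 18.6 CPM (male) and 56.8 CPM (female) in astrocytes, from 2 and 17 nuclei. It was lower than in neurons at 100.9 and 122 CPM (-1.49, adjusted p = 0.00924), and against microglia its fold was -0.52 in males and 1.29 in females (0.97, adjusted p = 0.0994), called with the library as a block and after thinning. Egr1, an immediate early gene, was at 12.4 and 13.1 CPM against 157 and 134 CPM in neurons (-3.66, adjusted p = 1.94e-05).

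The members above both classes were Fos and Cebpd. Fos, an immediate early gene, had 2 male and 7 female UMIs, or 12.4 and 15.3 CPM, with at most 2.41 CPM in the other classes (2.91, adjusted p = 0.00842 against microglia, and 2.92, adjusted p = 0.00781 against neurons). Cebpd, a C/EBP factor of the acute phase response, had 7 and 6 UMIs, or 43.3 and 13.1 CPM (3.22, adjusted p = 0.00292 and 5.73, adjusted p = 0.000148). Astrocytes exceeded the other classes in each library, though from few UMIs. With the RNA of barcodes with 10 to 100 UMIs subtracted, both calls of Fos were lost (2.73 and 2.60). The call of Cebpd against microglia was lost there too (3.22). The members below both were Klf6 and Ddit3. Klf6, a zinc finger factor of injury responses, was at 24.8 and 13.1 CPM (-1.87, adjusted p = 0.00172 and -1.86, adjusted p = 0.0019). Ddit3, the factor CHOP of the unfolded protein response, was at 24.8 and 13.1 CPM, with 53.3 and 33.1 CPM in microglia and 147 and 92.8 CPM in neurons (-1.41, adjusted p = 0.0327 and -3.04, adjusted p = 0.000116). Its call against microglia was lost with DESeq2 (-1.36), with a mean of at least 20 CPM (-1.22) and after thinning (-1.18). Both calls of Klf6 (-3.63 and -3.42) and of Ddit3 (-3.10 and -5.16) were lost after subtraction of the RNA of barcodes with 10 to 100 UMIs. In the 18 nuclei with at most 1 UMI of microglia markers neither call of Fos, Klf6 or Ddit3 was kept.

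Genes of the neuronal injury response were low next to the neurons of the same sort. Of 8 members, 7 were tested and 7 were lower than in neurons (15.2% of all genes). The median log2 fold change was -0.16 against microglia and -3.25 against neurons. Ecel1, a peptidase induced in injured neurons, had 3 male and 14 female UMIs, 9 of the latter in the nucleus with 413 neuron marker UMIs. Astrocytes were at 18.6 and 30.6 CPM, neurons at 267 and 379.5 CPM and empty barcodes at 195 and 202 CPM. The fold against neurons was -3.77, adjusted p = 1.92e-05, and that against microglia -0.16, adjusted p = 0.843, with 0.36 in the female library alone. Without that nucleus they were -4.78 and -1.17. Gap43, a growth cone protein, was at 61.9 and 34.9 CPM against 448 and 439 CPM in neurons (-3.55, adjusted p = 2.46e-06). Sprr1a, known from regenerating axons, had 3 and 1 UMIs (18.6 and 2.18 CPM, -3.16, adjusted p = 0.000946). Sox11, a factor of immature and injured neurons, was at 37.1 and 43.7 CPM, below neurons (-2.84, adjusted p = 6.73e-06) and above microglia (1.05, adjusted p = 0.0248). The call against microglia was lost without that nucleus (0.66), with no filter (0.90) and after thinning (1.13).

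Proliferation genes had few UMIs in astrocytes. Of 12 members 7 had no UMI in astrocytes, and Mki67, which marks cycling cells, had 0 UMIs in male and 1 in female astrocytes. Its ratio to microglia, at 12 and 13.3 CPM, was 0.124 over both libraries (95% interval 0.00312 to 0.703). In the fit it was called lower than in microglia (adjusted p = 0.0362), a call lost with DESeq2 and after subtraction of either profile of free RNA at a fold of similar size. The 12 members together were at 18.6 and 10.9 CPM, against 50.5 and 44.4 CPM in microglia and 13.1 and 9.31 CPM in neurons. The male sum was 3 UMIs of Rrm2, all in 1 nucleus. For a single gene the male limit of 18.6 CPM lies above the level of every member in male microglia. A male count of 0 thus cannot place a member below microglia.

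Markers of other cell types were measured in the astrocyte sums. The 15 microglia markers summed to 879 CPM in male and 1181 CPM in female astrocytes, against 8069 and 7921 CPM in microglia and 556 and 934 CPM in neurons. Tmem119 and Itgam had 0 UMIs. All 15 were lower than in microglia (16.7% of all genes were). The 13 neuron markers summed to 1677 and 1620 CPM, with Meg3 at 903 and 1046 CPM, against 18280 and 18557 CPM in neurons, and 760.7 CPM in female astrocytes without the nucleus apart. No neuron marker was at 0.

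Oligodendrocyte markers summed to 86.6 and 50.2 CPM, with Mag at 0. Of the precursor markers Pdgfra, Cspg4 and Sox10 had 0 UMIs, and the list summed to 24.8 and 17.5 CPM, led by Olig2. Fibroblast markers summed to 24.8 and 37.1 CPM, with Dcn, Lum and Slc6a13 at 0. Of the 2 tested, Col1a1, a collagen chain, was higher than in both other classes, from 2 male and 7 female UMIs (12.4 and 15.3 CPM, with 1.20 and 1.49 CPM in microglia and 0.980 and 1.57 CPM in neurons). Its log2 fold changes were 3.23, adjusted p = 0.00531 against microglia and 3.22, adjusted p = 0.00496 against neurons, and both calls were lost after subtraction of the RNA of barcodes with 10 to 100 UMIs (3.17 and 2.99). Endothelial markers summed to 18.6 and 10.9 CPM, led by Pecam1, with Cldn5, Flt1, Ly6c1 and Tek at 0. The 4 ependymal markers had 0 UMIs. Among mural markers, Rgs5, Kcnj8, Vtn and Abcc9 had 0 UMIs and Pdgfrb, a receptor for platelet-derived growth factor, 12 male and 25 female UMIs. Pdgfrb thus stood at 74.3 and 54.6 CPM, above microglia at 1.60 and 0.622 CPM and neurons at 1.14 and 0.261 CPM (5.93, adjusted p = 1.39e-05 and 6.42, adjusted p = 8e-06). In empty barcodes the microglia markers summed to 2903 and 4118 CPM and the neuron markers to 12183 and 9634 CPM. Pdgfrb was at 1.59 and 2.04 CPM there. The part of free RNA and of mixed droplets in the astrocyte values was not tested.

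Male and female astrocytes were compared by ratios. The log2 CPM of 3120 genes with at least 10 UMIs in each had a Pearson correlation of 0.906 across genes, which are not independent replicates and span a wide range of levels. With 1 library of each sex there was no test between them, and sex cannot be told apart from library, pool and depth. Of 4708 genes with at least 20 UMIs, 299 were at least 2 times higher in female and 371 in male astrocytes. Among 91 list genes these counts were 6 and 7. Beside Fkbp5 and Ggta1, with female to male ratios of 4.23 (95% interval 1.55 to 16.2) and 3.53 (95% interval 1.53 to 9.99), Osmr had a ratio of 2.29 (95% interval 1.24 to 4.63). For Iigp1 it was 0.188 (95% interval 0.0691 to 0.473) and for Bcan 0.426 (95% interval 0.320 to 0.567). A2m had 61.9 CPM (male) and 234 CPM (female), a ratio of 3.77 (95% interval 1.97 to 8.10). The ratio of Gfap was 1.56 (95% interval 1.16 to 2.13) and that of Aqp4 1.09 (95% interval 0.833 to 1.43). These intervals leave out the spread between nuclei, and 24 of 48 female Fkbp5 UMIs and 26 of 78 female Osmr UMIs lay in 1 nucleus each. Without the nucleus with the most UMIs of the gene, a choice made after the data were seen, the ratio was 2.24 (0.769 to 8.88) for Fkbp5 and 1.61 (0.847 to 3.31) for Osmr, with 1 inside both intervals. For Ggta1 it was then 3.03 (1.3 to 8.65), for A2m 3.17 (1.65 to 6.85), for Bcan 0.399 (0.297 to 0.535), for Gfap 1.38 (1.02 to 1.90), and for Iigp1, from 2 female UMIs, 0.0474 (0.00526 to 0.204), and the interval of Aqp4 was 0.773 to 1.34. The nucleus left out was a female one for each of these genes, so the choice itself works towards a lower ratio.

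These values rest on 115 nuclei in 2 libraries, each a pool of animals, so variation between animals was not measured. The label and the markers come from the same counts. Without uninjured animals or nuclei outside the sort, no level could be tied to the injury, and how the sorted astrocytes relate to other astrocytes of the cortex was not tested. Comparisons between cell types in the same droplet run share free RNA, and its removal ended more calls with the sparser profile than with the other. RNA in nuclei does not give the level of protein, which was not analysed here.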

How the data were processed

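Single-nucleus RNA of 2 libraries was measured with Chromium 3′ v3 chemistry in GFP+ nuclei of mouse cortex at 7 days after mTBI. The deposited matrices hold raw UMI counts per gene and barcode, which the authors counted in CellRanger against pre-mRNA of GRCm38 plus the reporter. Per the file headers the called barcodes come from CellRanger 7.0.1 (male) and 7.0.0 (female), and all barcodes from version 4, while the public labels name version 3.1.0. The deposited table gives for each nucleus its depth, the mitochondrial share in percent, which the authors computed in Seurat, a cluster number and a cell type. The cell type came from mapping to a motor cortex reference and was edited by the authors.

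Called barcodes numbered 4044 (male, 11007366 UMIs) and 4214 (female, 23202343 UMIs), and the 4003 and 4168 with a label were used. Their UMI totals were checked to equal those of the table. No doublets were removed by a caller here. UMIs of 31054 features were summed per library over astrocytes, microglia and neurons. The 6 sums were fitted with edgeR 4.0.16 (TMM, quasi-likelihood F test, filterByExpr, Benjamini-Hochberg adjustment) in R 4.3.3 with limma 3.58.1, and an adjusted p under 0.05 was a call. SE is the log2 fold change divided by the square root of F, and the biological coefficient of variation was 0.185. The test was checked on simulated data, where it called most of the changes put in. Changes were put only into genes above a minimum expected count in the male astrocyte sum, and other genes had no class difference. The check therefore does not cover calls from few UMIs. Both classes of a comparison come from the same pools of animals. Across 13818 genes the library difference of astrocytes correlated with that of microglia at r = 0.12 and with that of neurons at r = 0.169, and blocking by library was an alternative.

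For a fold in 1 library, its 3 sums were scaled with TMM and 0.5 was added to the scaled CPM before the log2 ratio, without a test. Printed CPM have no TMM scaling, so their ratio can differ from the fold. Intervals are exact binomial or Poisson at 95%. A sum at 0 has a floor of 3 UMIs per library. Python 3.11.15 with numpy 2.4.6, scipy 1.17.1 and pandas 2.3.3 did the rest. Members and the 21 lists (237 genes) were chosen with earlier results of these data known. Genes named are list members, the 4 markers and the 8 largest fitted folds per direction and comparison, with the same direction in both libraries and, where higher, at least 10 astrocyte UMIs in each. Other genes were chosen after their values were seen.

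Alternatives chosen before the data were examined were DESeq2 1.42.0, no filter, a mean of at least 20 CPM, the library as a block, subtraction of the RNA of barcodes with 10 to 100 UMIs, astrocytes with at most 1 UMI of microglia markers, astrocytes by cluster, astrocytes with a marker UMI, thinning of the other sums to the UMI total of the astrocytes, nuclei with at most 6000 genes and 5% mitochondrial UMIs, and each library alone. Alternatives chosen after seeing the data were subtraction of the RNA of empty barcodes with over 100 and up to 400 UMIs, leaving out the nucleus with over 100 UMIs of neuron markers and, for the ratios between libraries, leaving out the nucleus with the most UMIs of the gene. A further one chosen then is not reported here. The second table of counts of the same nuclei was not used here. Promoters were taken from RefSeq on GRCm38.p6.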

Additional observations from a re-analysis of the deposited data

Results flagged for a closer look

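Of the genes named, 3 had folds of opposite direction in the libraries, each at least 0.5 in size on the log2 scale and from at least 10 astrocyte UMIs over both. Ggta1 against microglia had a log2 ratio of -1.07 in males and 0.52 in females. Fkbp5 against neurons had -1.12 and 1.41, and 24 of its 48 female UMIs lay in 1 nucleus. Jun against microglia had -0.52 and 1.29. These are 1 library per sex, and the difference was not tested.

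Called barcodes without a label, which the comparisons do not use, also held UMIs of the 4 astrocyte markers, above the limit that a count of 0 allows. There were 72 such UMIs in 16 of 41 male barcodes and 54 in 15 of 46 female barcodes, with at most 22 and 21 in a barcode. The median depth of these barcodes was 1883 and 821 UMIs. Whether any of them are astrocytes was not tested, and the difference was not tested either.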

How the results depend on the processing

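Numbers of genes called moved by over 1.5 times in some alternatives. With the RNA of barcodes with 10 to 100 UMIs subtracted, 765 genes were higher and 611 lower than in microglia, and 513 higher and 404 lower than in neurons. In the 18 astrocytes with at most 1 UMI of microglia markers, which held 39199 and 3669 UMIs, the counts were 487 and 984, and 325 and 941. Thinning of the other classes gave 1254 genes lower than in microglia and 1142 lower than in neurons, and a mean of at least 20 CPM gave 1495 lower than in microglia. With the empty-barcode profile subtracted the counts were 2309 and 1925, and 1638 and 1901. With DESeq2 they were 2259 and 1993, and 2001 and 1832.

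Of 113 folds, 11 changed direction in at least 1 alternative or library, 66 lost a call and 6 gained one. In the 18 astrocytes the fold of S1pr3 was -5.31 against microglia and -6.85 against neurons, of Stat3 -1.37 and -0.34, of Ggta1 -1.06 against microglia, of Notch1 -0.11 and of Cd109 -6.63, also against microglia. Against neurons Fkbp5 was at -1.76 and Bmpr1a at -0.22. These nuclei held 0 UMIs of S1pr3 and Cd109, 1 of Fkbp5, 2 of Notch1 and 3 of Ggta1, so those fitted values are no bounds. The median of all genes tested in this setting was -2.10 against microglia and -2.10 against neurons, so these signs cannot be told apart from a shift of all genes. Without a filter Stat3 was at -0.0048 against microglia. Ecel1 against microglia was at 0.03 with a mean of at least 20 CPM, 0.31 after thinning and 0 after subtraction of the empty-barcode profile.

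In a library alone the range was -1.07 to 0.52 for Ggta1 against microglia, -1.12 to 1.41 for Fkbp5 against neurons, -0.02 to 0.13 for Stat3, -0.52 to 1.29 for Jun and -1.27 to 0.36 for Ecel1, the last 3 against microglia. The share of astrocytes was 1.53% by the most frequent label of the cluster. The mean share with a Gfap UMI was 37% after shallow nuclei were left out and the others thinned, against 52.3%. Requiring a marker UMI kept all 115 astrocytes and changed no fold.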

Other observations

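The most abundant gene of the astrocyte sums was Gm42418, which overlaps ribosomal RNA sequence, at 74126 and 128252 CPM, against 148524 and 218684 CPM in microglia and 40267 and 90001 CPM in neurons. It was chosen after its values were seen. Gm47283, a Y-linked gene by its position, had 36 UMIs in male and 97 in female astrocytes, unlike the other Y-linked genes named.

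Osmr was found in 17.1% of male and 17.2% of female astrocytes after 18 male and 4 female nuclei under 2000 UMIs were left out and the others thinned to 2000.

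Grin2c, a glutamate receptor subunit known from astrocytes, was at 699 and 317 CPM, a female to male ratio of 0.453 (95% interval 0.352 to 0.584), with at most 2.01 CPM in microglia and neurons. A UMI was found in astrocytes for 14507 genes, and in both libraries for 10530.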
